A study of Mus musculus with 24 samples.

Results

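The genes described here were the protein-coding potassium channel genes, taken as all genes with a symbol that begins with Kcn. The rule found 92 of the 33364 genes in the count tables, and 5 non-coding RNAs with Kcn-type names were left out. They comprised 40 voltage-gated subunits, 14 inward rectifiers, 13 two-pore channels, 8 Kcnma, Kcnn, Kcnt and Kcnu channels, and 17 accessory subunits. Those 8 were grouped by symbol under the heading of channels activated by calcium or sodium, which was not checked for each gene, Kcnu1 included. Kcnj1 and Kcnk16 were not analysed here.

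RNA was sequenced from 2 areas of frontal cortex, the medial prefrontal (mPFC) and the anterior cingulate (ACC), of C57BL/6 mice that were 3 months old. Female and male mice had undergone spared nerve injury (SNI), a neuropathic pain model in which the common peroneal and sural branches of the sciatic nerve are tied and cut while the tibial branch is kept, or a sham operation, and cortex was collected 2 weeks afterwards. Sex, region and operation thus defined 8 groups, each with 3 libraries, giving 24 libraries in all. Each library was a pool of punches from several mice, so that the spread between libraries was a spread between pools of mixed cell types, and p-values measure only that spread. The sham mice were the controls of their own sex and region.

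Neurons set their resting potential, spike width and firing rate with potassium channels. Voltage-gated (Kv) channels open on depolarization and repolarize the cell, inward rectifiers (Kir) and two-pore channels (K2P) carry current near rest, and calcium- or sodium-activated channels couple ion entry to the afterpotential. In the cortex, Kv3 channels are known for the narrow spikes of parvalbumin interneurons, Kv7 channels for the M-current, and Kcnj10 for the buffering of potassium by astrocytes.

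Library depth ranged from 23853845 to 32864391 reads counted on genes, and the potassium channel genes took 0.603% to 0.705% of them. A count of 3, used as the floor of detection, equalled 0.0913 to 0.126 CPM (counts relative to library size), which covers counting error only. Levels are given as CPM scaled by TMM factors, and between genes they are compared only per kilobase of exon (RPKM). The labelled sexes were checked with Xist, which lay at 556 to 763 CPM in the 12 female libraries and at 0.0366 to 3.02 CPM in the 12 male ones. The pyramidal neuron markers summed to 4880 to 6070 CPM across all libraries, and those of striatal neurons to 121 to 196 CPM. The 4 libraries that stood apart are named here because several values rest on them. Female sham ACC pool 1 held choroid plexus markers at a sum of 994 CPM, where the next library, male SNI mPFC pool 2, had 84.8 CPM and no other exceeded 12.3 CPM. Female SNI mPFC pool 1 had the smallest sum of oligodendrocyte markers, 1130 CPM. Female sham mPFC pool 3 and male sham ACC pool 3 had the strongest trends with GC content against the other pools of their group.

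Of the 92 genes, 81 had enough reads to be tested across all libraries. Per kilobase, the most abundant voltage-gated subunits included Kcnf1, a silent subunit that does not conduct alone, at a mean of 47.6 RPKM over 24 libraries and Kcnh3 at 35.6 RPKM. Among the inward rectifiers these were Kcnj4 at 55.7 RPKM, Kcnj9, a subunit of G protein-gated channels, at 38.4 RPKM, and Kcnj10 at 33.3 RPKM. The two-pore channels were led by Kcnk1 at 38.8 RPKM, Kcnk12 at 9.98 RPKM and Kcnk2 at 9.52 RPKM. Of the calcium- or sodium-activated channels, Kcnma1, the large-conductance BK channel, stood at 21.8 RPKM, Kcnt1 at 11.8 RPKM and Kcnt2 at 5.53 RPKM. The accessory subunit Kcnab2 had the highest level of all 92 genes, at 76.7 RPKM, followed within its subgroup by Kcnip3 at 36.8 RPKM and Kcnmb4, a BK beta subunit, at 24.7 RPKM. The remaining 11 genes fell under the filter on low counts. Kcna7, Kcna10, Kcne1, Kcne3, Kcnj15, Kcnk7, Kcnk15, Kcnk18, Kcnmb3 and Kcnv2 had at most 9 reads in any library, and Kcne2 had 161 reads in the choroid plexus-rich pool, 20 in male SNI mPFC pool 2 and at most 5 elsewhere.

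The first comparison asked how the 2 regions differ in these channels. Potassium channel transcripts were more often higher in the ACC than in the mPFC: with the 4 sex and operation groups of each region combined, 61 of 81 genes passed a false discovery rate (FDR) of 0.1 over all genes tested, 42 higher in the ACC and 19 higher in the mPFC. The background was large, since 49% of all 18078 genes tested were called, 24.7% as higher in the ACC and 24.3% as higher in the mPFC. The median log2 fold change (mPFC over ACC) was -0.10 for the potassium channel genes and 0 for all genes. Their summed level was 5940 to 6550 CPM in the 12 mPFC libraries, with a median of 6240 CPM, and 6620 to 7140 CPM in the 12 ACC libraries, with a median of 6960 CPM, so that the regions did not overlap. In these bulk samples, fewer cells of a type and less RNA per cell cannot be told apart.

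**Figure D1:**
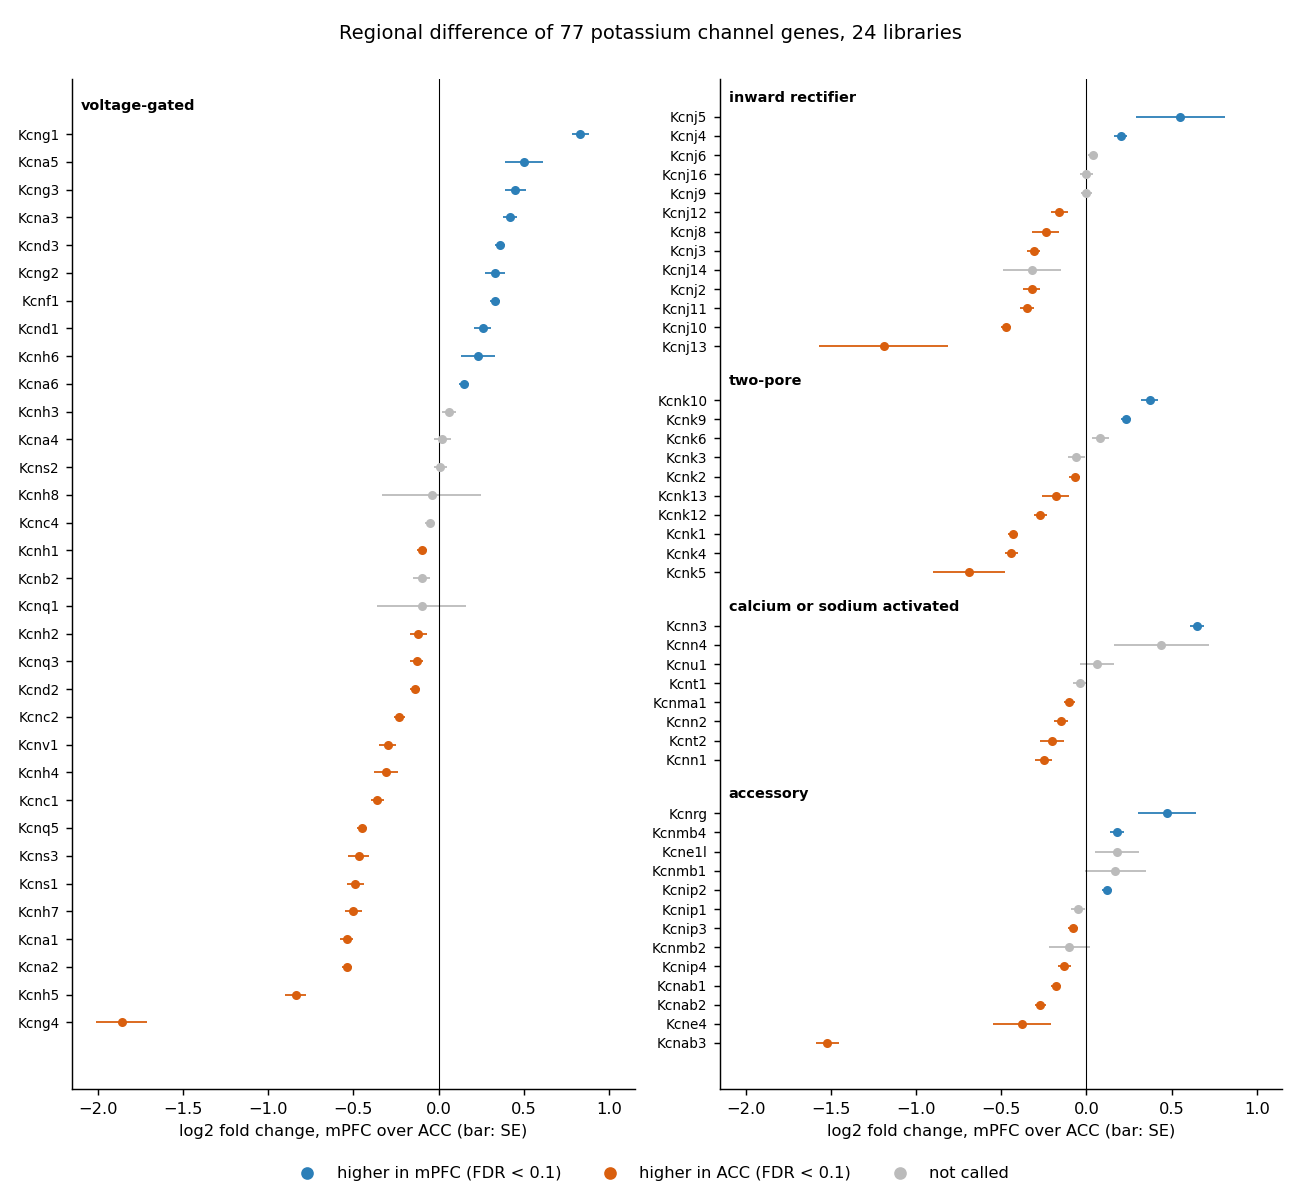
Log2 fold change (mPFC over ACC, 12 libraries each) of 77 of the 81 potassium channel genes tested, by subgroup; bars are standard errors, colour marks genes called at FDR under 0.1 and grey those not called. Kcng4 (-1.86) and Kcnab3 (-1.52) lie farthest to the ACC side and Kcng1 (0.83) farthest to the mPFC side.

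By subgroup, 30 of 37 voltage-gated genes were called, 19 of them higher in the ACC and 11 higher in the mPFC. Of the inward rectifiers 9 of 13 were called (7 higher in the ACC), of the two-pore channels 8 of 10 (6 higher in the ACC), of the calcium- or sodium-activated channels 5 of 8 (4 higher in the ACC), and of the accessory subunits 9 of 13 (6 higher in the ACC). In 18 genes the 12 libraries of one region lay wholly apart from the 12 of the other, which held for 4.86% of all genes tested. Of these, 13 were higher in the ACC (among them Kcna1, Kcna2, Kcnab3, Kcnc2, Kcng4, Kcnh5, Kcnj10, Kcnk1, Kcnk4, Kcnq5 and Kcns3) and 5 higher in the mPFC (Kcnd3, Kcnf1, Kcng1, Kcnk9 and Kcnn3).

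The Kv1 channels, which line axons and the initial segment and limit excitability, were split. Kcna2 measured 268 to 339 CPM in the mPFC libraries (median 293) and 383 to 484 CPM in the ACC libraries (median 441), a log2 fold change of -0.54 ± 0.03 (SE) with an adjusted p of 9.29e-12. Kcna1 ran from 53.7 to 69.8 CPM in the mPFC and from 71.8 to 101 CPM in the ACC, with a log2 fold change of -0.54 ± 0.04 (adjusted p = 7.21e-10). Both genes were therefore higher in every ACC library than in any mPFC library. Its other called members went the opposite way: Kcna3 was 1.34-fold higher in the mPFC by its mean CPM (log2 0.42 ± 0.04, adjusted p = 3.19e-08), Kcna6 1.11-fold higher and Kcna5 1.41-fold higher, with overlapping libraries. Kcna4, which makes fast inactivating current, was not called (log2 0.02 ± 0.05, 95% interval -0.07 to 0.11).

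The cytoplasmic beta subunits that bind Kv1 channels were all higher in the ACC. Kcnab3 differed most and had the smallest adjusted p of the 81 genes. In the mPFC it measured 21.9, 15 and 16.2 CPM in the female sham pools, 17.1, 15.5 and 16.4 CPM after SNI in females, 19.7, 20.2 and 16.1 CPM in the male sham pools, and 20.5, 17.9 and 21.4 CPM after SNI in males. In the ACC the corresponding values were 40.4, 46.7 and 42.5 CPM, 57.8, 48 and 44.2 CPM, 55.7, 51.8 and 66.8 CPM, and 57.9, 48.2 and 68.8 CPM. The lowest ACC pool thus lay well above the highest mPFC pool, and the mean was 2.88-fold higher in the ACC (log2 -1.52 ± 0.07, adjusted p = 5.28e-14). Kcnab2 was 1.2-fold and Kcnab1 1.13-fold higher in the ACC, with overlapping libraries. The adhesion and scaffold genes listed as channel partners (Cntn, Cntnap, Adam22 and Dlg) went both ways. Cntnap1 (log2 -0.52 ± 0.04), Cntn2 (log2 -0.32 ± 0.06), Dlg1 (log2 -0.21 ± 0.03) and Cntnap2 (log2 -0.06 ± 0.03) were also higher in the ACC. Dlg4 (log2 0.12 ± 0.03) and Dlg2 (log2 0.06 ± 0.02) were higher in the mPFC, and Adam22 was not called (log2 -0.04 ± 0.03).

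Silent subunits, which conduct only when they assemble with Kv2 channels, differed in both directions. Kcng4 was the gene with the largest difference of all 81. Its mPFC pools measured 4.76, 1.18 and 1.73 CPM (female sham), 1.9, 1.47 and 1.92 CPM (female SNI), 2.39, 1.6 and 2.05 CPM (male sham) and 2.53, 1.43 and 2.73 CPM (male SNI). Its ACC pools measured 5.63, 8.51 and 7.42 CPM, 9.2, 9.07 and 7.75 CPM, 5.89, 6.88 and 7.53 CPM, and 10.3, 6.77 and 8.25 CPM in the same order. The regions did not overlap, although female sham mPFC pool 1 stood apart from the other mPFC pools; the ACC mean was 3.63-fold higher (log2 -1.86 ± 0.15, adjusted p = 6.11e-10). In female sham mice alone the log2 fold change was -1.47 ± 0.37 with that pool and -2.30 ± 0.24 without it.

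Kcng1 showed the largest difference towards the mPFC. It measured 51.3 to 69.8 CPM there (median 62.1) and 31.5 to 43.4 CPM in the ACC (median 33.9), 1.77-fold higher in the mPFC (log2 0.83 ± 0.05, adjusted p = 1.44e-12). Kcnf1 ran from 225 to 279 CPM in the mPFC and reached at most 225 CPM in the ACC at this rounding, without overlap (log2 0.33 ± 0.03, adjusted p = 1.6e-08). Kcng3 was 1.37-fold and Kcng2 1.26-fold higher in the mPFC, with overlap. Kcns1 (log2 -0.49 ± 0.05), Kcns3 (log2 -0.47 ± 0.06) and Kcnv1 (log2 -0.30 ± 0.05) were higher in the ACC, and Kcns2 was not called. The Kv2 gene Kcnb2 was not called (log2 -0.10 ± 0.05, adjusted p = 0.128), and Amigo1, a Kv2 auxiliary protein, was slightly higher in the ACC (log2 -0.14 ± 0.02).

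**Figure D2:**
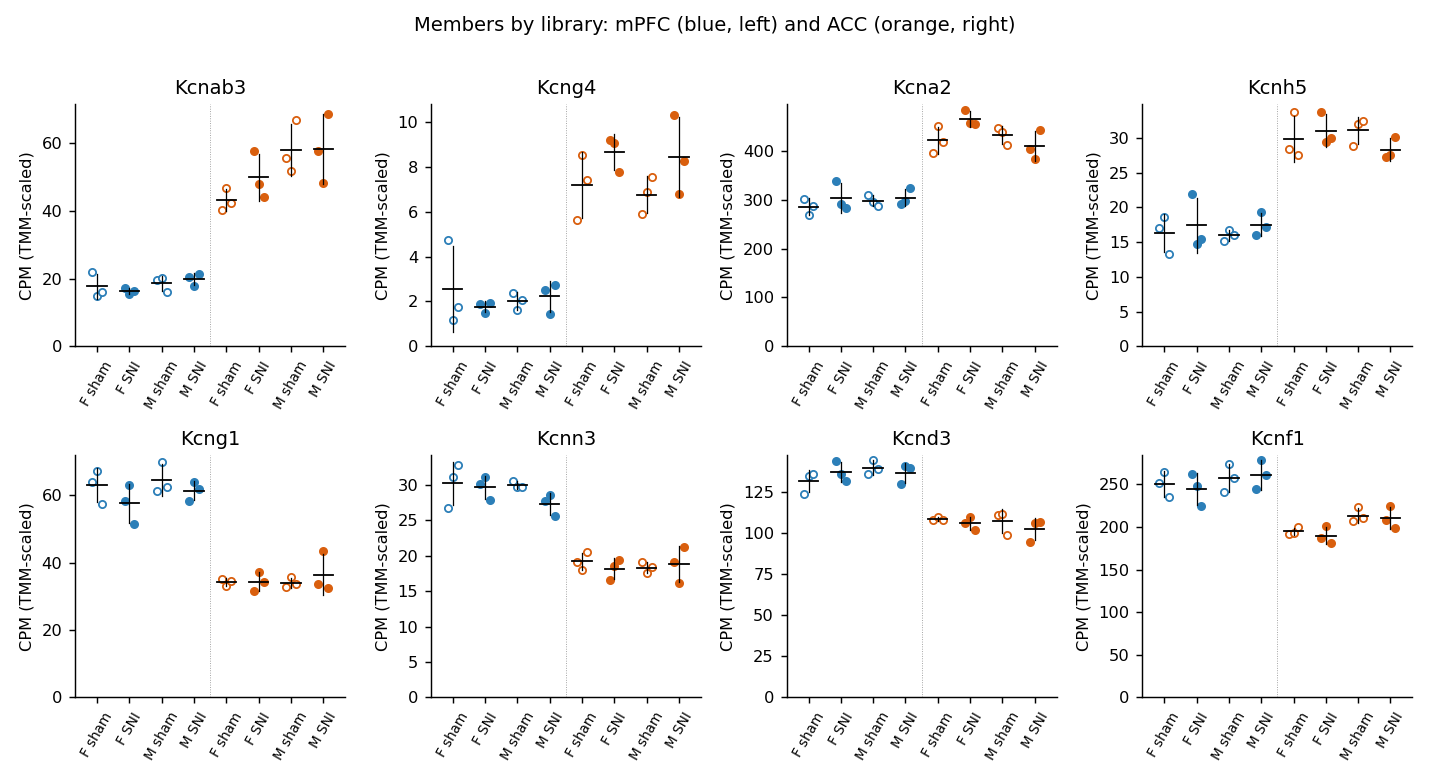
Level (CPM, TMM-scaled) of 8 genes in each of the 24 libraries by sex and operation; open circles are sham, filled circles SNI, horizontal lines group means and vertical lines SD (n = 3), mPFC on the left and ACC on the right of each panel. Kcnab3, Kcng4, Kcna2 and Kcnh5 are higher in every ACC library, and Kcng1, Kcnn3, Kcnd3 and Kcnf1 in every mPFC library.

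Kv3 channels allow rapid repolarization and high firing rates. Kcnc1 measured 184 to 240 CPM in the mPFC (median 206) and 233 to 313 CPM in the ACC (median 261), so that the regions overlapped slightly (log2 -0.36 ± 0.04, adjusted p = 5.21e-08). Kcnc2 ran from 107 to 119 CPM in the mPFC and from 121 to 146 CPM in the ACC, without overlap (log2 -0.23 ± 0.03, adjusted p = 3.72e-07), and Kcnc4 was not called (log2 -0.05 ± 0.03, 95% interval -0.12 to 0.01). The parvalbumin interneuron markers moved with these genes: 7 of 8 were higher in the ACC, Tac1 alone was higher in the mPFC, and their summed level was 260 to 327 CPM in the mPFC and 443 to 626 CPM in the ACC. Pvalb itself had a mean of 11.7 CPM in the mPFC and 38.3 CPM in the ACC. The part of these markers in the differences of Kcnc1, Kcnc2, Kcng4, Kcnab3 and the Kv1 genes was not tested.

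Kv4 channels carry the A-type current of dendrites. Kcnd3 measured 124 to 145 CPM in the mPFC and 94.9 to 112 CPM in the ACC, again without overlap (log2 0.36 ± 0.03, adjusted p = 3.56e-10). Kcnd1 was 1.19-fold higher in the mPFC, whereas Kcnd2 was 1.11-fold higher in the ACC. Of the Kv4 partners, the calcium sensor Kcnip2 was higher in the mPFC (log2 0.12 ± 0.03), Kcnip3 (log2 -0.08 ± 0.03) and Kcnip4 (log2 -0.13 ± 0.04) were higher in the ACC, and Kcnip1 was not called; Dpp6 was slightly higher in the mPFC (log2 0.08 ± 0.02), and Dpp10 was not called (adjusted p = 0.553).

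Among the Kv7 genes, Kcnq5 measured 107 to 130 CPM in the mPFC and 146 to 169 CPM in the ACC (log2 -0.45 ± 0.03, adjusted p = 1.93e-10). Kcnq3 was also higher in the ACC (log2 -0.13 ± 0.04), and Kcnq1 was not called. In the ether-a-go-go family, Kcnh5 measured 13.3 to 22 CPM in the mPFC and 27.2 to 33.8 CPM in the ACC, 1.79-fold higher in the ACC (log2 -0.84 ± 0.06, adjusted p = 9.26e-11). Kcnh7 was 1.42-fold higher in the ACC with overlapping libraries. Kcnh1, Kcnh2 and Kcnh4 were called in the same direction with log2 fold changes of -0.10, -0.12 and -0.31, Kcnh6 was called as higher in the mPFC (adjusted p = 0.0677), and Kcnh3 and Kcnh8 were not called. The call of Kcnh2 was lost in 5 of 24 fits that left out 1 library and without the 4 libraries that stood apart (log2 -0.06, adjusted p = 0.286), and that of Kcnh6 in 10 of 24 and without those 4 (log2 0.21, adjusted p = 0.13).

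The promoters of 4 genes are shown because these genes had the largest differences in each direction, among those with no overlap between regions and with a promoter in the RefSeq table (GRCm38.p6), which covered 67 of the 92 genes. Each line gives the 250 bases before the annotated start, 5′ to 3′ on the gene's strand, and capitals mark a match on either strand to one of 6 motifs, namely the GC box GGGCGG, the CCAAT box, the TATA box TATAAA, the cAMP response element TGACGTCA, the early growth response motif GCGNGGGCG and the MEF2 motif. Kcng4 and Kcnh5 were higher in the ACC, and Kcnn3 and Kcnd3 were higher in the mPFC. The windows are chr8:119635681-119635930 (minus strand) for Kcng4, chr12:75177333-75177582 (minus strand) for Kcnh5, chr3:89519914-89520163 (plus strand) for Kcnn3, and chr3:105451640-105451889 (plus strand) for Kcnd3, whose RefSeq start lies 440 bases from the nearest start of the annotation used for gene names.
Kcng4: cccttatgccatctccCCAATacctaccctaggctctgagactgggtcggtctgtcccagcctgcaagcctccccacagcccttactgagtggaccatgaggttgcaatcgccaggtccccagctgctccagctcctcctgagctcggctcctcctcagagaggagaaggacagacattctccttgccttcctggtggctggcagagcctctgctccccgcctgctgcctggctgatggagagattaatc
Kcnh5: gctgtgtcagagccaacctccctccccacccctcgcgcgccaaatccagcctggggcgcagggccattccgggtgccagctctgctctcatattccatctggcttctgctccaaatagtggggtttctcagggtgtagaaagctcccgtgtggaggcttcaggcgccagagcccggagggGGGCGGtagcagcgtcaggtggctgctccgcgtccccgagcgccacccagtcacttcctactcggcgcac
Kcnn3: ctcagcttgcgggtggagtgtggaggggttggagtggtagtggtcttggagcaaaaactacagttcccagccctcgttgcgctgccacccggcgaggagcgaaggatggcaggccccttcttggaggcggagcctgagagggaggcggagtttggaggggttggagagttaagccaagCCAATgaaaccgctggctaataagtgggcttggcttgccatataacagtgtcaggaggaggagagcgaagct
Kcnd3: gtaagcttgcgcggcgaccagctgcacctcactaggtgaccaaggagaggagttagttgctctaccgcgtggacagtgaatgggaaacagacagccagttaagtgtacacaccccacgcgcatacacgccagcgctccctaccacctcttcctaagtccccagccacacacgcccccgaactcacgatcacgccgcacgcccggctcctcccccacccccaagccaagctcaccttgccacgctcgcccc

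One CCAAT match lay in the Kcng4 window and one in the Kcnn3 window, one GGGCGG match lay in the Kcnh5 window, and the Kcnd3 window held none of the 6 motifs. GGGCGG occurred in 16 of 33 promoters of genes higher in the ACC and in 8 of 14 promoters of genes higher in the mPFC. It occurred in 5 of 11 promoters of potassium channel genes tested but not called, and in 32.7% of all 32851 promoters of this length. In the same order, CCAAT occurred in 12 of 33, 3 of 14 and 1 of 11, against 33.8% of all promoters. TATAAA occurred in 1 of 33, 0 of 14 and 1 of 11, against 12.4%. TGACGTCA was in none of the 67 member promoters (1.55% of all), and GCGNGGGCG and the MEF2 motif were each in 2 of the 67 (4.7% and 3.2% of all). GCGNGGGCG can overlap GGGCGG by part of its length. The median GC content of these windows was 61.2% for genes higher in the ACC, 60.8% for genes higher in the mPFC and 58.8% for those not called. Over all promoters it was 52.4%.

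Inward rectifiers were mostly higher in the ACC. Kcnj10, the astrocyte channel for potassium uptake, measured 136 to 165 CPM in the mPFC (median 150) and 185 to 229 CPM in the ACC (median 211), without overlap (log2 -0.47 ± 0.03, adjusted p = 4.83e-11). Its partner subunit Kcnj16 did not follow, at 23.6 to 30.9 CPM in the mPFC and 24 to 30 CPM in the ACC (log2 0, SE 0.04, 95% interval -0.08 to 0.08). Astrocyte markers were called as higher in the ACC in 7 of 8 cases and as higher in the mPFC in 1, Slc1a3, with a median log2 fold change of -0.19 and summed levels of 4850 to 5660 CPM in the mPFC and 5260 to 6190 CPM in the ACC. Their part in the difference of Kcnj10 was not tested.

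Both genes of the ATP-sensitive channel of neurons were higher in the ACC: its pore Kcnj11 had a log2 fold change of -0.35 ± 0.04 (adjusted p = 5.14e-08) and its sulfonylurea receptor Abcc8 one of -0.47 ± 0.05 (adjusted p = 1.15e-08). The vascular pair showed the same direction, with Kcnj8 at -0.24 ± 0.08 (adjusted p = 0.0244) and Abcc9 at -0.35 ± 0.04 (adjusted p = 1.83e-07). Of the 6 mural cell markers, 5 were also called as higher in the ACC, and without the 4 libraries that stood apart Kcnj8 was no longer called (log2 -0.16, adjusted p = 0.137). Of the strong rectifiers, Kcnj2 (log2 -0.32 ± 0.05) and Kcnj12 (log2 -0.16 ± 0.05) were higher in the ACC and Kcnj4 was 1.14-fold higher in the mPFC. Of the G protein-gated channels, Kcnj3 was 1.24-fold higher in the ACC, Kcnj6 and Kcnj9 were not called, and Kcnj5, at 0.0732 to 0.485 CPM, was called as higher in the mPFC with an adjusted p of 0.0881 and lost in 14 of 24 fits that left out 1 library.

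Kcnj13, a channel of choroid plexus epithelium, had a difference whose size depended on one library. Its level was 0.184 to 0.992 CPM in the mPFC, and in the ACC 9.75 CPM in female sham pool 1 and 0.345 to 1.36 CPM in the other 11 pools. The log2 fold change over all libraries was -1.19 ± 0.38 (adjusted p = 0.0138) with that pool and -0.71 ± 0.25 (adjusted p = 0.0256) without it, and in female sham mice it went from -2.94 ± 0.85 to -1.01 ± 0.41, when it was no longer called (adjusted p = 0.122). Kcnj13 was not called in SNI mice (0.13 ± 0.31 in females, -0.25 ± 0.51 in males). It was called in male sham mice, which do not include that pool (-1.68 ± 0.45, adjusted p = 0.0361). This rested on 5, 8 and 9 reads in the mPFC against 22, 12 and 37 in the ACC. The call was lost without male sham mPFC pool 1 (adjusted p = 0.131) or pool 2 (0.129). Without male sham ACC pool 3 the value was -1.22 ± 0.47 (adjusted p = 0.0849). Kcne2, a beta subunit of the same epithelium, had 6.43 CPM in female sham ACC pool 1, 0.735 CPM in male SNI mPFC pool 2 and at most 0.185 CPM elsewhere.

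Among the two-pore channels Kcnk1 had the smallest adjusted p and was 1.35-fold higher in the ACC (67.9 to 84 CPM against 89.6 to 107 CPM, log2 -0.43 ± 0.03, adjusted p = 1.9e-10), and Kcnk4, a mechanosensitive channel, was also 1.35-fold higher (12.3 to 17.9 CPM against 19.4 to 24.9 CPM, log2 -0.44 ± 0.04). Neither overlapped between regions. The acid-sensitive channel Kcnk9 was higher in the mPFC, at 96.6 to 116 CPM against 86.7 to 96.6 CPM at this rounding (log2 0.23 ± 0.03, adjusted p = 6.06e-08), and Kcnk10 was 1.29-fold higher there, whereas Kcnk3, which can pair with Kcnk9, was not called (log2 -0.06 ± 0.05, 95% interval -0.15 to 0.03). Kcnk12, Kcnk2, Kcnk5 and Kcnk13 were called as higher in the ACC. Of all the two-pore channels called, Kcnk5 had the largest log2 fold change, -0.69 ± 0.21 (adjusted p = 0.0118), at mean levels of 0.394 CPM in the mPFC and 0.627 CPM in the ACC. The call of Kcnk13 (adjusted p = 0.0825) was lost in 11 of 24 fits that left out 1 library and without the 4 libraries that stood apart (log2 -0.13, adjusted p = 0.143).

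The small-conductance SK channels, which carry the afterhyperpolarization, split by gene. Kcnn3 measured 25.6 to 32.8 CPM in the mPFC (median 29.7) and 16.1 to 21.2 CPM in the ACC (median 18.8), 1.58-fold higher in the mPFC without overlap (log2 0.65 ± 0.04, adjusted p = 2.23e-11). Kcnn1 (log2 -0.25 ± 0.05) and Kcnn2 (log2 -0.15 ± 0.04) were higher in the ACC. The BK channel Kcnma1 differed by -0.10 ± 0.03, and its regulators went both ways: the beta subunit Kcnmb4 was higher in the mPFC (log2 0.18 ± 0.04), and the gamma subunits Lrrc55 (log2 -0.70 ± 0.05) and Lrrc38 (log2 -0.81 ± 0.12) were higher in the ACC. Of the sodium-activated channels, Kcnt2 was called as higher in the ACC (log2 -0.20 ± 0.07) and Kcnt1 was not called. In the whole list of 30 channel partners, 29 were tested and 22 called, 15 higher in the ACC and 7 higher in the mPFC, with a median log2 fold change of -0.06.

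The 4 comparisons of region within 1 sex and 1 operation share no library with each other, so they could be set side by side. In female sham mice 44 of 78 potassium channel genes were called (28.5% of all genes tested), in male sham mice 35 of 78 (14.2%), in female SNI mice 43 of 78 (27.6%) and in male SNI mice 31 of 79 (21%). A total of 22 of the 78 genes tested in all 4 comparisons were called every time in the same direction, against 7.16% of 16319 genes (3.25% higher in the ACC and 3.9% higher in the mPFC). The 15 that were always higher in the ACC included Kcna1, Kcna2, Kcnab3, Kcng4, Kcnh5, Kcnh7, Kcnj10, Kcnj11, Kcnk1, Kcnk4, Kcnq5, Kcns1 and Kcns3, and the 7 that were always higher in the mPFC were Kcna3, Kcnd3, Kcnf1, Kcng1, Kcnj4, Kcnk9 and Kcnn3. Kcnab3, for example, had log2 fold changes of -1.28 ± 0.12, -1.63 ± 0.11, -1.61 ± 0.08 and -1.55 ± 0.11 in female sham, male sham, female SNI and male SNI mice. Kcng1 had 0.89 ± 0.07, 0.94 ± 0.08, 0.75 ± 0.08 and 0.75 ± 0.09 in the same order. Not all of these calls were stable under the alternative settings listed below. That of Kcnj4 was lost in 8 of 14 in female SNI, 6 of 14 in male sham and 1 of 12 in male SNI mice. In male sham mice that of Kcnk9 was lost in 8 of 14 and that of Kcnf1 in 2 of 14. Kcna3, Kcnd3, Kcng1 and Kcnn3 kept theirs under every alternative in all 4 comparisons. The sign alone was the same in all 4 comparisons for 52 of the 78 genes, against 47.2% of all genes. In male sham mice the count of 35 became 22 without mPFC pool 2 and 47 without ACC pool 3, and in female sham mice 44 became 33 without ACC pool 2 or mPFC pool 2, and 50 without mPFC pool 3.

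**Figure D3:**
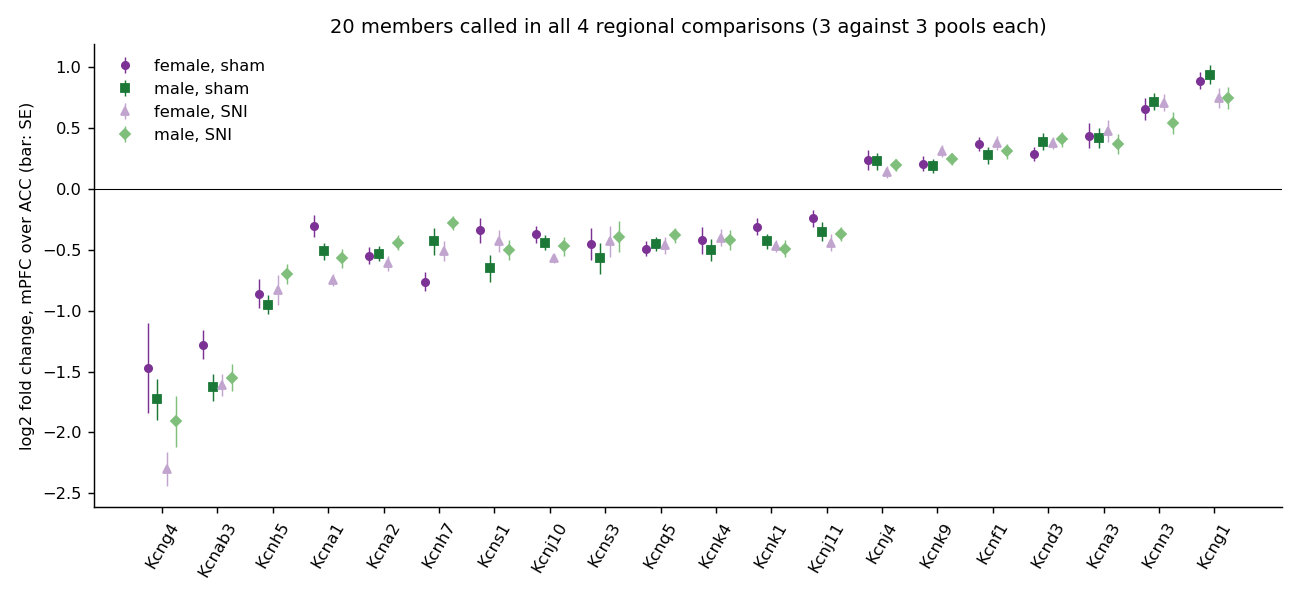
Log2 fold change (mPFC over ACC) with standard errors of 20 of the 22 genes called in all 4 comparisons of 3 mPFC with 3 ACC pools, ordered by their mean. For every gene drawn the 4 values lie on the same side of 0, from -2.30 for Kcng4 to 0.94 for Kcng1.

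Whether the regional difference itself depended on sex or operation was tested as an interaction over the 24 libraries. No potassium channel gene and no other gene passed edgeR's test in either interaction in the main fit. The main fits kept all libraries and the filter on low counts, with no replicate block and no GC correction. At an unadjusted p under 0.05 there were 9 of 81 genes for region by sex (13.7% of all genes tested) and 11 of 81 for region by operation (9.53%). DESeq2 called none of these genes in either interaction. Without the 4 libraries that stood apart, 20 of 81 genes were called for region by operation (15.4% of all genes) and 8 for region by sex (6.07%), and with the GC correction added 0 were called in both. Without female sham mPFC pool 3 alone, 2 were called for region by sex (3.47% of all genes). The smallest p for region by sex belonged to Kcnj3 (female minus male difference of the regional log2 fold change -0.21 ± 0.07, adjusted p = 0.241), and for region by operation to Kcnk13 (SNI minus sham difference -0.52 ± 0.16, adjusted p = 0.394).

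The second question was whether SNI changed these channels. None of them was called after SNI in any of the 6 comparisons in edgeR's main fits. Other settings of edgeR's test gave calls, as described below. In the mPFC of females 0 of 77 genes were called (0.00592% of all genes tested), with 10 at an unadjusted p under 0.05 (12.1% of all genes), and in the mPFC of males 0 of 77 (0.494%), with 14 (11.2%). In the ACC of females 0 of 78 were called (0.024%), with 17 at an unadjusted p under 0.05 (6.67%), and in the ACC of males 0 of 79 (0.00599%), with 1 (4.48%). With the sexes combined, 0 of 80 were called in the mPFC (0.00567%), with 9 at an unadjusted p under 0.05 (8.46%), and 0 of 79 in the ACC (0.0174%), with 6 (5.84%). DESeq2 called 1 of these genes in the ACC of females (Kcna1, adjusted p = 0.0347), 1 in the mPFC of males (Kcnh3, adjusted p = 0.0874), 1 in the combined mPFC comparison (Kcnk13) and 0 in the other 3. With the replicate number as a block, edgeR's calls in the male mPFC included Kcnk13, Kcnk4 and Kcnv1 (adjusted p = 0.0753, 0.0868 and 0.0823). The median absolute log2 fold change was 0.11 (mPFC of females), 0.09 (mPFC of males), 0.07 (ACC of females) and 0.08 (ACC of males), beside a median standard error of 0.06 to 0.09. In the same order, 35 of 77, 52 of 77, 57 of 78 and 38 of 79 genes had a value above 0. Their medians were -0.04, 0.04, 0.04 and 0, against 0, 0, 0 and -0.01 for all genes.

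**Figure D4:**
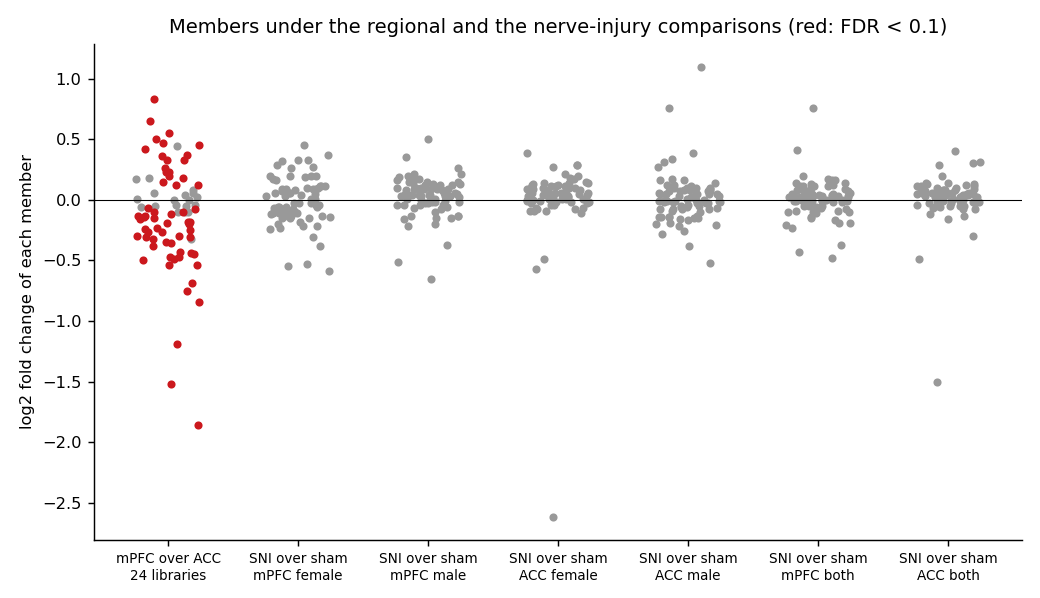
Log2 fold change of each potassium channel gene tested between regions (24 libraries) and between SNI and sham in 6 comparisons; red marks genes called at FDR under 0.1, and the horizontal scatter within a column has no meaning. Called genes appear only in the regional comparison, and the lowest point after SNI, -2.62 in the female ACC, is Kcnj13.

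With the sexes combined, the smallest p after SNI in the mPFC belonged to Kcnk13, a two-pore channel known from microglia. Its sham pools measured 7.5, 8.7 and 8.09 CPM in females and 9.28, 8.42 and 7.5 CPM in males, and its SNI pools 3.5, 6.48 and 6.04 CPM in females and 6.6, 6.24 and 6.66 CPM in males. All 6 SNI pools thus lay below all 6 sham pools, which was true of no other potassium channel gene in that comparison in either direction, and of 0.488% of all genes. The log2 fold change (SNI over sham) was -0.48 ± 0.11 with an unadjusted p of 0.000588 and an adjusted p of 0.263, so the gene was not called; by DESeq2 its adjusted p was 0.0368, and without female SNI mPFC pool 2 edgeR gave 0.0703, without female sham mPFC pool 3 it gave 0.0922, and over all alternatives the adjusted p ran from 1.3e-05 (no filter on low counts) to 0.638. Its size rested partly on female SNI mPFC pool 1, the lowest pool and one of the libraries that stood apart. Without that pool edgeR gave -0.36 ± 0.08 (adjusted p = 0.198), and without all 4 such libraries -0.36 ± 0.08 (adjusted p = 0.0623). In females alone the value went from -0.59 ± 0.18 to -0.37 ± 0.12 without that pool (adjusted p = 0.586). In the ACC of both sexes Kcnk13 had a log2 fold change of 0.04 ± 0.10. Oligodendrocyte markers moved with it: their sum was 3000 to 3930 CPM in the 6 mPFC sham pools and 1130 to 2940 CPM in the 6 mPFC SNI pools, also without overlap. Microglia markers summed to 297 to 318 CPM in the sham pools and 289 to 315 CPM in the SNI pools, which overlapped. The part of these cells in the level of Kcnk13 was not tested.

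**Figure D5:**
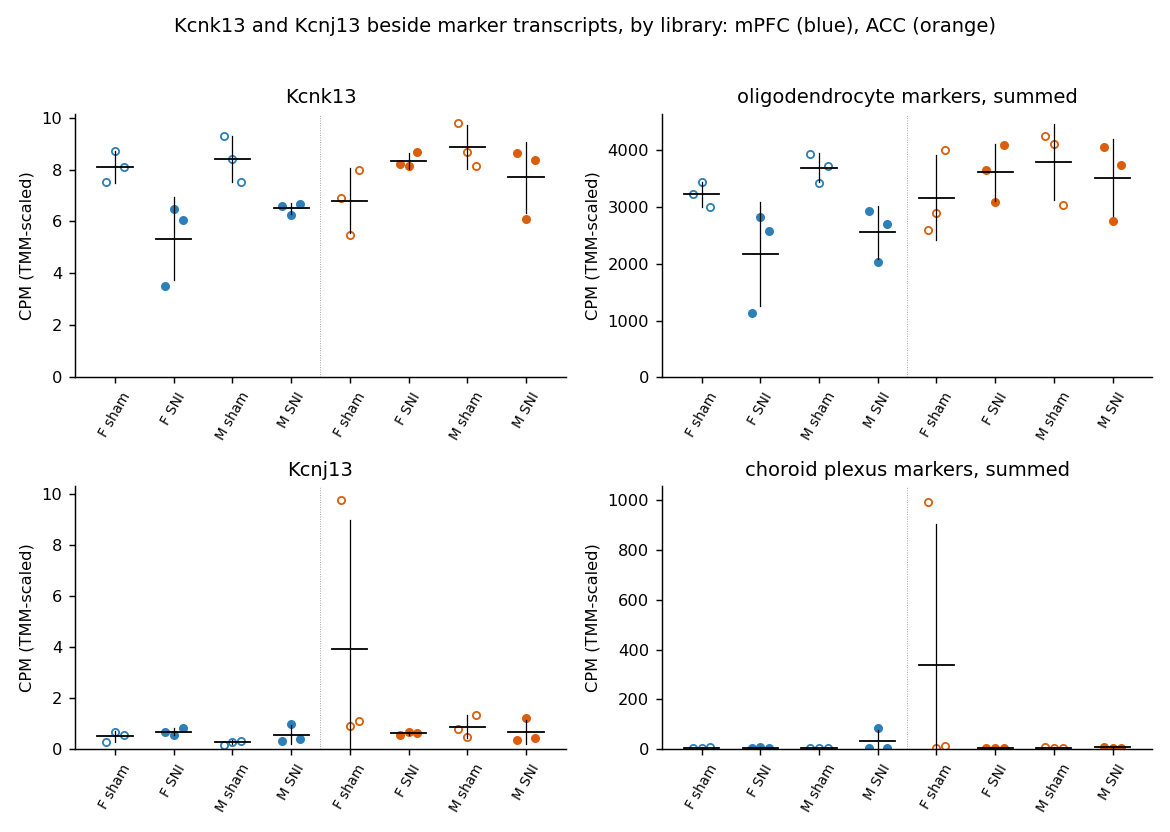
Level (CPM, TMM-scaled) of Kcnk13 and Kcnj13 beside the summed level of oligodendrocyte and choroid plexus markers in each library; open circles are sham, filled circles SNI, lines mean and SD (n = 3, cut at 0). In the mPFC both Kcnk13 and the oligodendrocyte sum are lower in all SNI pools, and Kcnj13 (9.75 CPM) and the choroid plexus sum (994 CPM) are highest in the same female sham ACC pool.

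The other genes with the smallest p, none of them called, were these. In the female mPFC, Kcng2 measured 8.05 ± 0.665 CPM after SNI and 11.6 ± 1.42 CPM after sham (SD, n = 3; log2 -0.53 ± 0.12, adjusted p = 0.401), while Kcnk13 (log2 -0.59 ± 0.18) and Kcnh7 (log2 0.32 ± 0.10) had the same adjusted p. In the male mPFC, Kcnk4 (log2 0.26 ± 0.08, adjusted p = 0.202) and Kcnv1 (log2 0.15 ± 0.05, adjusted p = 0.229) stood beside Kcnk13 (log2 -0.37 ± 0.11). In the female ACC, Kcna1 measured 97.6 ± 3.02 CPM after SNI and 79.8 ± 10.4 CPM after sham (log2 0.29 ± 0.07, adjusted p = 0.476), followed by Kcnc1 (log2 0.14 ± 0.04) and Kcnk12 (log2 0.20 ± 0.06). In the male ACC these were Kcnn4 (log2 1.10 ± 0.42, at 0.186 to 0.409 CPM by group mean), Kcnmb1 (log2 0.76 ± 0.34) and Kcnip4 (log2 -0.19 ± 0.09), each with an adjusted p of 0.768. With both sexes combined they were Kcng2 and Kcnv1 beside Kcnk13 in the mPFC, and Kcng4, Kcnj13 and Kcnip4 in the ACC (adjusted p = 0.782 each). The value of Kcnj13 in the female ACC, -2.62 ± 0.78, was -0.69 ± 0.33 without the choroid plexus-rich pool.

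In the female mPFC and the male ACC the absence of calls after SNI depended on single libraries. Without female sham mPFC pool 3, 20 of 79 potassium channel genes were called in the female mPFC (25.3%, against 15.9% of all genes), 14 lower after SNI with a median exonic GC content of 58.5% and 6 higher with a median of 39.9%. Without male sham ACC pool 3, 13 of 79 were called in the male ACC (16.5%, against 13.5% of all genes), 8 lower with a median GC content of 40.6% and 5 higher with a median of 57.4%. These were the libraries with the strongest GC trends. When the 4 libraries that stood apart were left out and each library was corrected for GC content, the counts were 2 in the female mPFC (Kcng2 and Kcnmb4, both lower after SNI; 1.24% of all genes were called) and 0 in the male ACC.

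A difference of the SNI effect between females and males was not called for any gene of the genome in either region in edgeR's main fits. At an unadjusted p under 0.05 there were 14 of 80 potassium channel genes in the mPFC (15.8% of all genes) and 7 of 79 in the ACC (5.92%). DESeq2 called 4 of the 45 genes it gave an adjusted p in the mPFC (Kcnab2, Kcnh2, Kcnh3 and Kcnma1; 8.89%, against 10.9% of all genes) and none in the ACC. In edgeR's test 24 of 80 were called in the mPFC without female sham mPFC pool 3 (18.3% of all genes) and 22 without the 4 libraries that stood apart (17%), which became 1 with the GC correction added (0.262%). In the ACC 13 of 79 were called without male sham ACC pool 3 (9.65% of all genes) and 1 without the 4 libraries (3.05%). Kcng2 had the smallest p in the mPFC (female minus male difference of the log2 fold change -0.59 ± 0.15, adjusted p = 0.216).

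Between the sexes, 9 of 81 potassium channel genes were called, all of them lower in females, against 6.29% of all genes called and 3.19% called as lower in females. They included Kcnip2 (female minus male log2 -0.11 ± 0.03), Kcns1 (-0.20 ± 0.05), Kcnk12 (-0.16 ± 0.04), Kcnab3 (-0.25 ± 0.07), Kcnj11 (-0.14 ± 0.04), Kcnab2 (-0.10 ± 0.03), Kcnf1 (-0.10 ± 0.03) and Kcnc1 (-0.12 ± 0.04), and all 9 had an adjusted p from 0.0324 to 0.0858. Of the genes named, Kcnab3 had the largest difference. Its group means in the ACC were 43.2 ± 3.2 and 50 ± 7.02 CPM in sham and SNI females and 58.1 ± 7.81 and 58.3 ± 10.3 CPM in sham and SNI males. Single ACC pools of the sexes overlapped after SNI, but not after sham (40.4 to 46.7 CPM in females, 51.8 to 66.8 CPM in males). In the mPFC the sham pools measured 21.9, 15 and 16.2 CPM in females and 19.7, 20.2 and 16.1 CPM in males. The SNI pools there measured 17.1, 15.5 and 16.4 CPM in females and 20.5, 17.9 and 21.4 CPM in males. No potassium channel gene separated all 12 female from all 12 male libraries, which 0.0664% of all genes did. After correction for GC content 2 of the 9 remained called, Kcnab3 and Kcnip2 (3.92% of all genes were called), and without the 4 libraries that stood apart 4 genes were called, Kcnj11, Kcnk12 and Kcns1 among them (2.07%). The count was also 5 without any one of 8 libraries (3.24% to 4.89% of all genes) and 15 without male sham ACC pool 1 (10% of all genes). The tables were deposited by sex, so sex and any difference in handling between them cannot be told apart.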

How the data were processed

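Per the labels and the submitters' processing notes, the authors trimmed paired-end reads (Trimmomatic 0.36), removed reads that matched Rfam (Bowtie2 2.33), aligned the rest to GRCm38 (HISAT2 2.1.0) and counted them per gene (HTSeq 0.9.1), and edgeR 3.34.0 is also named there. The deposited values are raw counts per gene, in 4 tables, one for each sex and region. The strand setting and annotation release were not given in the sources used here, and 39 of the 92 genes overlap a gene on the opposite strand, so reads of such pairs may be mixed.

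Counts were tested with edgeR 4.0.16 (quasi-likelihood test, R 4.3.3) after TMM scaling and filterByExpr (minimum count 10, total 15). Genes were called at a Benjamini-Hochberg FDR under 0.1 over all genes tested. Comparisons of 2 groups used 6 libraries, those of one region 12, and those of region, sex and their interactions 24. Each fit had 1 coefficient per group of sex, region and operation, and effects were contrasts of group means. Intervals are 95% normal intervals. CPM and RPKM were computed from the counts, and marker levels are sums of CPM. Scripts were tested on simulated data. The alternatives were DESeq2 1.42.0, RLE size factors, no filter, a GC content correction, the replicate number as a block, leaving out each library and, chosen after seeing the data, leaving out 4 libraries that stood apart. Depth was 23853845 to 32864391 reads per library.

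The genes, marker and partner lists were chosen with earlier results of these data known. In each comparison the called genes were named, up to 12 in each direction by adjusted p, or the 3 with the smallest p where none was called, together with the 3 highest RPKM of each subgroup and the genes under the filter. Other genes are named to complete a family and were chosen after their values were seen. A further 4 genes enter the counts and sums but are not reported here by name.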

Additional observations from a re-analysis of the deposited data

How the results depend on the processing

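The regional counts of called potassium channel genes stayed within 1.5 times under every alternative except in male sham mice without mPFC pool 2. Leaving out each library in turn gave 57 to 61 over all libraries, 33 to 50 in female sham, 22 to 47 in male sham, 31 to 48 in female SNI and 26 to 34 in male SNI mice. Of the 61 genes called over all libraries, 53 were called under every alternative, 56 in all 24 fits without one library, and 0 changed sign. The same ranges for SNI were 0 to 20 (mPFC of females), 0 to 0 (mPFC of males), 0 to 3 (ACC of females), 0 to 13 (ACC of males), 0 to 2 in the mPFC and 0 to 7 in the ACC of both sexes. They were 5 to 15 for sex, 0 to 2 for region by sex, 0 to 0 for region by SNI, 0 to 24 for sex by SNI in the mPFC and 0 to 13 in the ACC. The highest values came without female sham mPFC pool 3 (mPFC and region by sex), male sham ACC pool 3 (male ACC, ACC of both sexes and sex by SNI in the ACC), and female sham ACC pool 2 (female ACC). At these highest values 15.9% of all genes were called in the female mPFC, 1.34% in the mPFC of both sexes, 0.8% in the female ACC, 13.5% in the male ACC, 7.27% in the ACC of both sexes, 3.47% for region by sex, 10% for sex, and 18.3% (mPFC) and 9.65% (ACC) for sex by SNI.

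DESeq2 called 1 gene after SNI in the female ACC, the male mPFC and the mPFC of both sexes, 4 for sex by SNI in the mPFC and 14 for sex, where 0.222% to 12.3% of all genes were called. Without a filter on low counts, 7 genes were called in the female ACC, 1 in the ACC of both sexes, 5 and 4 in the mPFC of females and males, 4 in that of both sexes, 7 for region by SNI, 8 for region by sex, 22 for sex, and 2 (ACC) and 7 (mPFC) for sex by SNI, beside 0.357% to 5.96% of all genes. Without the 4 libraries that stood apart the counts were 13 in the male ACC, 9 in the ACC of both sexes, 20 in the female mPFC, 2 in the mPFC of both sexes, 20 for region by SNI, 8 for region by sex, 4 for sex, and 1 (ACC) and 22 (mPFC) for sex by SNI, beside 1.23% to 17% of all genes. With the GC correction added to that they were 2 in the female mPFC, 1 in the mPFC of both sexes, 2 for sex and 1 for sex by SNI in the mPFC, beside 0.262% to 2.2% of all genes, and Kcnh7 in the female mPFC reversed to -0.05. The GC correction alone left 2 genes for sex (3.92% of all genes). The cause of these shifts was not tested.

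Whether same-numbered pools of the 2 regions came from the same mice was not given in the sources used here. The rule for pairing, a correlation over 0.1 in every same-numbered pair, was met in no comparison. These correlations ran from -0.0596 to 0.102 between the regions, and from -0.103 to 0.153 between SNI and sham pools of one region. Between SNI and sham pools of the female mPFC, each of the 3 (0.0283, 0.121 and 0.0979) was above those of differently numbered libraries. That is a hint from the data and not from the design. SNI and sham pools came from different mice, so it does not bear on whether the regions were paired. With the replicate number as a block, 7 genes were called after SNI in the male mPFC (4.39% of all genes), Kcnc1, Kcnh3, Kcnj9, Kcnk13, Kcnk4 and Kcnv1 among them, and 2 (2.34%) with the GC correction added, which also left 2 for sex (4.03%); 59 were called between regions. Over 140 pairs of a named gene and a comparison, 2387 of 2543 alternative values kept their direction and side of the threshold, 121 lost the call, 34 gained one and 1 reversed.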

Other observations

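Non-coding RNAs with Kcn-type names were not counted among the potassium channel genes, and 3 of the 5 had enough reads to be tested between regions. Kcnq1ot1, the imprinted transcript that runs antisense to Kcnq1, had a mean of 48.3 ± 11.5 CPM in the mPFC and 37.3 ± 6.01 CPM in the ACC (SD, 12 libraries each; log2 0.36 ± 0.10, adjusted p = 0.00591), while Kcnq1 itself was not called. Kcnd3os was also higher in the mPFC (log2 0.51 ± 0.17, adjusted p = 0.0204), as was Kcnmb4os2 (log2 0.35 ± 0.07, adjusted p = 0.000241), and so were the coding genes Kcnd3 and Kcnmb4. Since the strand setting of the counting was not given, reads from stretches where an antisense RNA and its partner overlap may be mixed.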
